A study of Mus musculus with 18 samples.

Results

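The genes that make and use small RNAs were followed through mouse prostates of 3 genotypes (WT, KO and A537T), taken at an age of 10 or 30 weeks. The set is 10 genes, listed by name, of 55469 in each deposited table. They are Drosha and Dgcr8, Xpo5, Dicer1 and Tarbp2, the Argonautes Ago1, Ago2, Ago3 and Ago4, and Ang. The study mutated Elac2, which encodes the enzyme that trims the 3′ trailer from precursor transfer RNAs, and tied the mutants to altered microRNAs and to transfer RNA precursors that keep their 3′ ends. The question here was whether the messenger RNAs of the small RNA machinery differed between mutant and WT.

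Total RNA from the ventral and lateral lobes of male C56NL/6N mice was sequenced as 18 libraries, 3 for each of the 6 combinations of genotype and age. In KO mice, Cre driven by the probasin (Pb) promoter removes exon 8 of Elac2. Only cells in which that promoter is active lose the gene, so Elac2 RNA of the other cells of the lobes remains. A537T mice carry a threonine substitution of Elac2 in every cell, which was introduced with CRISPR-Cas9 and stands for the human Ala541Thr variant. Both alleles are homozygous, and the WT controls are described as littermate-matched and homozygous. The TRAMP crosses were not analysed here. The 4 tables of normalized counts each hold 3 WT and 3 mutant libraries. The 3 WT libraries of an age appear in both tables of that age, so KO and A537T are set against the same controls and their results are not independent. The normalized counts of the members in those WT libraries differed by 0.0295 to 13.4% between the 2 tables.

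Libraries held 6569642 to 11225281 recovered reads, which are whole-number estimates obtained from the normalized counts. A count of the Elac2 gene takes reads from all its exons and does not test the loss of exon 8. Its normalized counts at 10 weeks were 124, 142 and 166 in WT and 119, 111 and 115 in KO (log2 fold change -0.31, adjusted p = 0.325 from limma). At 30 weeks they were 150, 153 and 194 in WT and 98.4, 151 and 122 in KO, so KO lay below WT without overlap at 10 weeks only. Genes of the prostate luminal epithelium were detected in every library, with none of 8 at 0. They made up 0.452 to 3.83% of normalized counts in KO of 10 weeks against 3.67 to 13.3% in WT, and 4.46 to 14.7% in the libraries of 30 weeks. In A537T of 10 weeks the share was 7.86 to 10.3%, within the range of WT. RNA of other lobes and tissues was present too. Tgm4 and 9530053A07Rik, secretory genes of the dorsal and anterior lobes, made up 0.00065 to 5.27% of normalized counts in WT of 10 weeks. They made up 3.38 to 5.89% in KO and 3.71 to 5.60% in A537T of that age. At 30 weeks their share was 0.00111 to 5.93% in WT, 0.000935 to 2.61% in KO and 0.0549 to 0.312% in A537T. The part of this lobe mix in the values of the members was not tested. The 8 seminal vesicle genes made up 6.55 to 10.3% of normalized counts in the 3 KO libraries of 10 weeks, and 6.32 to 9.17% in libraries 4AF and 6AF (KO) and 7AF and 9AF (A537T) of 30 weeks. In the WT libraries of 30 weeks they stayed at or below 0.000335%. Elac2 was highest in the mutant libraries of that age that held almost none, 5AF (KO) at 151 and 8AF (A537T) at 189. It was at 98.4 and 122 in 4AF and 6AF, and at 121 and 114 in 7AF and 9AF. Without 4AF and 6AF its KO log2 fold change went from -0.43 to -0.12. Without 7AF and 9AF that of A537T went from -0.23 to 0.23, with 1 mutant library left in each. The part of seminal vesicle RNA in these values was not tested further. The 12 skeletal muscle genes made up 1.50 to 5.26% in WT of 10 weeks against 0.0263 to 0.832% in KO. In A537T of that age they made up 0.506 to 1.60%, which overlapped WT. The 4 adipocyte genes made up 0.0366 to 0.0390% in A537T of 10 weeks against 0.0176 to 0.0273% in WT, without overlap. The part of the adipocyte share in the A537T values was not tested. The 8 lymphocyte and plasma cell genes made up 0.0247 to 0.107% in A537T of 30 weeks against 0.0079 to 0.0124% in WT, without overlap. Because these are whole lobes, fewer cells of a type and less RNA per cell cannot be told apart.

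MicroRNAs are cut from long primary transcripts in the nucleus by the Microprocessor, in which the ribonuclease Drosha works with the RNA-binding protein Dgcr8. The hairpin that is released is carried to the cytoplasm by exportin 5 (Xpo5) and cut again by Dicer1, which works with the partner protein Tarbp2. A strand of the resulting duplex is loaded into an Argonaute, which finds messenger RNAs through the seed of the microRNA. Ago2 is the Argonaute best known for cutting a target itself. Angiogenin (Ang) is a secreted ribonuclease that can cut mature transfer RNAs in the anticodon loop under stress, and Elac2 cuts at the 3′ end of the precursor.

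In GRCm38, Drosha lies on chromosome 15 from 12824815 to 12935291 on the plus strand, Dgcr8 on chromosome 16 from 18253948 to 18289246 on the minus strand and Xpo5 on chromosome 17 from 46202782 to 46243598 on the plus strand. Dicer1 lies on chromosome 12 from 104687742 to 104751952 on the minus strand and Tarbp2 on chromosome 15 from 102518192 to 102523676 on the plus strand. All 10 genes had reads in all 18 libraries and all were tested in every comparison. To compare genes with each other, normalized counts were divided by the length of the union of each gene's exons. The levels given for a group are means over libraries ± SD (n = 3). In WT prostates of 10 weeks, Ago2 at 70.3 ± 14.7 normalized counts per kb, Xpo5 at 62.0 ± 6.1, Ago4 at 54.7 ± 6.5 and Ago1 at 53.7 ± 2.7 came highest, and each overlapped its neighbour in this order. Dicer1 followed at 47.6 ± 2.9 and Drosha at 39.0 ± 2.8, each apart from its neighbours on both sides. Ago3 at 30.3 ± 7.0, Dgcr8 at 28.6 ± 3.3, Ang at 21.0 ± 8.6 and Tarbp2 at 20.0 ± 5.2 came lowest, again each overlapping the next.

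The WT order at 30 weeks was led by Ago4 at 95.6 ± 11.5 and Ago1 at 86.4 ± 7.8 normalized counts per kb, with Xpo5 at 76.4 ± 6.3 and Ago2 at 69.8 ± 5.9 next and overlapping. Dicer1 at 48.0 ± 2.4 and Drosha at 38.9 ± 3.2 again stood apart, and Tarbp2 was lowest at 16.7 ± 3.4. Tables of the 2 ages were scaled separately, so these levels are set side by side without a test. Among the mutants, Ago2, Ago1 and Xpo5 led in KO at 10 weeks at 63.2, 62.0 and 60.2 normalized counts per kb, and Ago1 and Ago2 led in A537T at 10 weeks at 69.8 and 68.0. At 30 weeks Xpo5 and Ago1 led in both mutants, at 72.0 and 69.5 in KO and at 70.6 and 69.3 in A537T. Neighbours among these leaders overlapped in every group. The order at the top depends on the length used. With the longest transcript in place of the union of exons, a choice made after seeing the data, Xpo5 was first in all 6 groups and Dicer1 second in all but WT of 30 weeks, where Ago4 at 101.6 and Ago1 at 97.1 came between Xpo5 at 103.2 and Dicer1 at 81.6.

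**Figure D1:**
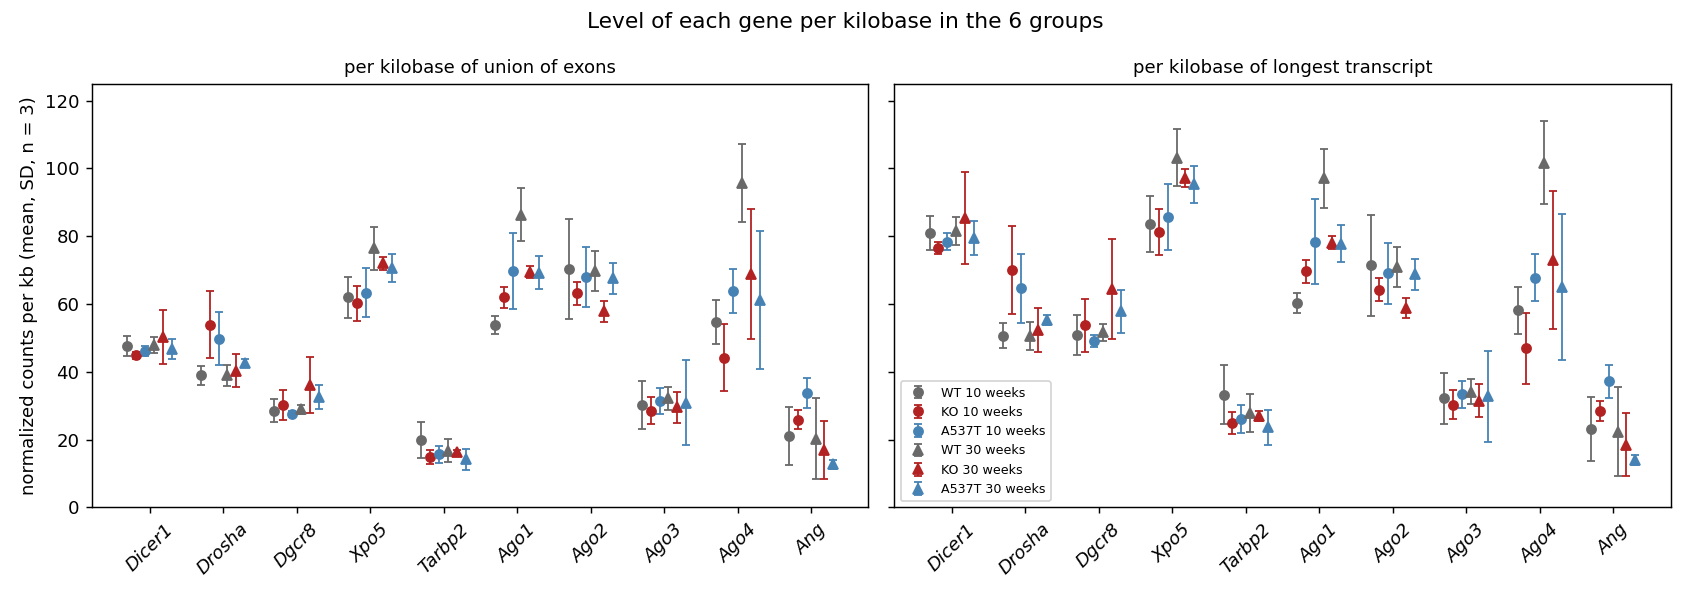
Level of each gene (normalized counts per kb, mean and SD of 3 libraries) in the 6 groups, with length taken as the union of exons on the left and as the longest transcript on the right; circles are 10 weeks and triangles 30 weeks, WT in grey, KO in red and A537T in blue. WT values are from the KO tables. Ago4 and Ago1 in WT of 30 weeks reach 95.6 and 86.4 on the left, and Tarbp2 is at or below 20.0 in every group on the left.

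Across the 18 libraries, with WT taken from the KO tables, Dicer1 varied least, with a coefficient of variation of 7.79%. Xpo5 at 11.3%, Ago2 at 12.1%, Dgcr8 at 15.4%, Ago1 at 16.7%, Drosha at 17.4%, Ago3 at 18.95% and Tarbp2 at 19.9% came between. Ago4 at 30.7% and Ang at 42.5% varied most. The 18 columns come from 4 tables, between which a member's value in the same WT library differed by up to 13.4%. Such differences between tables were not taken out of these spreads. Ago4 ranged from 254 normalized counts in KO library 13AF to 739 in WT library 1AF. Ang is thinly covered, at 10 to 48 recovered reads per library, and ranged from 8.04 to 45.7 normalized counts, which limits the precision of every Ang value.

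No member passed the test in any comparison. With limma on log2(normalized count + 1) and adjustment over all genes tested, 0 of 10 were called in each of the 4 comparisons, beside 0% of all genes in each. At an unadjusted p under 0.05 the count was 1 of 10 for KO at 10 weeks, where 19.4% of all genes passed, and 0 of 10 for A537T at 10 weeks, where 6.43% passed. It was 2 of 10 for KO at 30 weeks, beside 11%, and 2 of 10 for A537T at 30 weeks, beside 13.6%. On recovered reads, edgeR called 0 members and 0% of genes in all 4 comparisons. DESeq2 also called 0 members, beside 4.74% of genes for KO at 10 weeks, 0.595% for A537T at 10 weeks, 1.93% for KO at 30 weeks and 3.19% for A537T at 30 weeks. The lowest adjusted p of any member was 0.229, 0.746, 0.407 and 0.295 from limma in that order of comparisons, and 0.200, 0.776, 0.338 and 0.124 from DESeq2.

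The members' median log2 fold change was -0.05 for KO and -0.05 for A537T at 10 weeks, beside -0.01 and 0.01 for all genes tested. At 30 weeks it was -0.10 for KO and -0.15 for A537T, beside -0.01 for all genes in both. At 10 weeks 4 of 10 fold changes lay above 0 in each mutant, and at 30 weeks 3 of 10. The 95% confidence intervals were widest for Ang and reached 0.80 to 1.51 log2 units on either side of the estimate, against 0.23 to 0.28 for the tightest member of each comparison. These widths match an unadjusted p of 0.05, so with 3 mice a group the adjusted test needed larger changes than these. Some changes beyond their own width were not called, such as that of Ago4 in A537T of 30 weeks at -0.71.

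**Figure D2:**
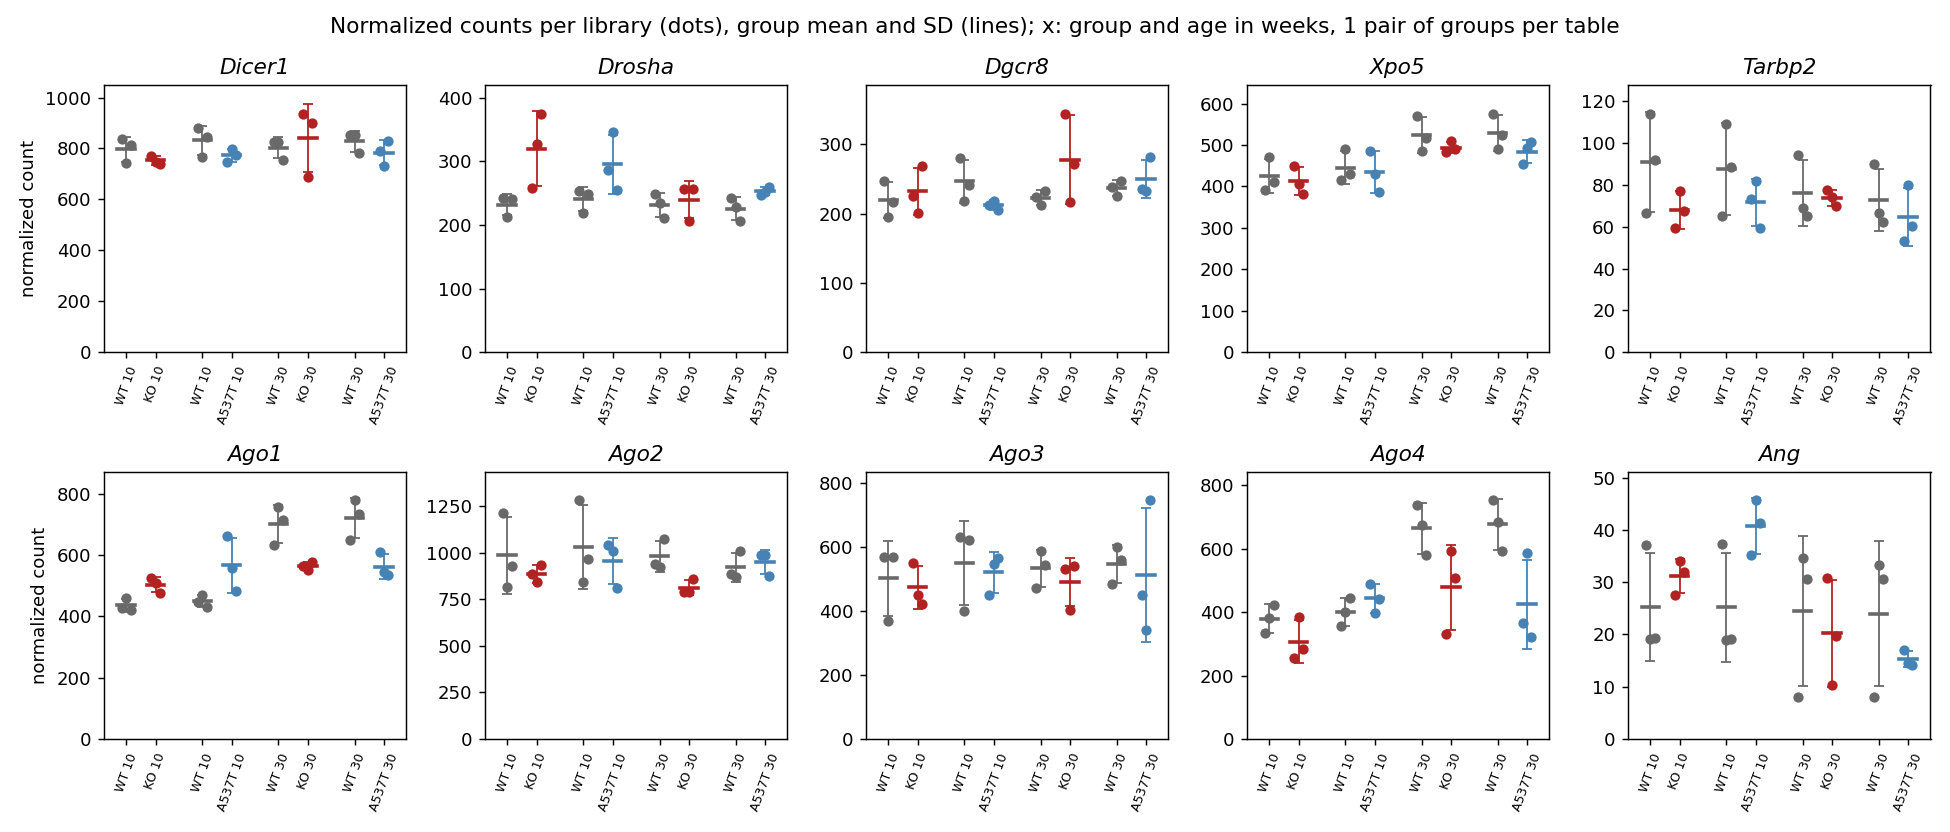
Normalized counts of the 10 genes in every library (dots), with group mean and SD (lines), in 4 pairs of WT (grey) and mutant (KO red, A537T blue) groups, 1 pair per deposited table; the number after each group is the age in weeks. Ago1 lies above WT in both mutants at 10 weeks and below WT in both at 30 weeks, and Dicer1 stays between 687 and 937.

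Drosha, the catalytic subunit of the Microprocessor, was higher in the mutant libraries at 10 weeks. Its normalized counts were 242, 212 and 241 in WT and 258, 327 and 375 in KO. In the A537T table they were 254, 219 and 249 in WT and 286, 345 and 254 in A537T. In both tables every mutant library lay above every WT library, but in the second by less than 1 normalized count, between the lowest A537T library at 254.2 and the highest WT library at 253.8. The log2 fold change was 0.45 for KO (95% CI 0.05 to 0.85, unadjusted p = 0.0332, adjusted p = 0.229 from limma) and 0.29 for A537T (95% CI -0.09 to 0.67, adjusted p = 0.749). As given above, KO of this age also differed from WT in its luminal epithelium, skeletal muscle and seminal vesicle shares, with overlap for the luminal share. This is a difference between groups, and whether the shares went with Drosha or Ago1 library by library was not tested. The part of these shares in the Drosha and Ago1 values was not tested beyond a skeletal muscle score as a covariate. With that score Drosha was at 0.43 in KO (SE 0.31, adjusted p = 0.9996 from limma) and 0.39 in A537T (SE 0.22, adjusted p = 0.868). The skeletal muscle shares of KO and WT did not overlap at this age, so that fit can hardly tell the score from the genotype.

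At 30 weeks the Drosha counts of KO, 257, 206 and 256, covered those of WT at 248, 234 and 211. In A537T they were 247, 252 and 260 against WT at 242, 228 and 206, which did not overlap. KO differed from WT by 0.05 on the log2 scale (adjusted p = 0.917 from limma) and A537T by 0.17 (adjusted p = 0.532). The KO fold change at 30 weeks minus that at 10 weeks was -0.40 (95% CI -0.88 to 0.07, adjusted p = 0.502 from limma). For A537T that difference was -0.12 (95% CI -0.53 to 0.29).

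Dgcr8, which recognises the hairpin for Drosha, overlapped between mutant and WT in all 4 comparisons. At 10 weeks its normalized counts were 247, 196 and 217 in WT and 226, 201 and 269 in KO. In A537T they were 213, 219 and 205 against 280, 218 and 242 in WT of that table. Log2 fold changes were 0.07 for KO and -0.21 for A537T at 10 weeks, and 0.29 and 0.07 at 30 weeks, with adjusted p from limma between 0.567 and 0.816.

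The Microprocessor needs both subunits, so the ratio of their per-kb levels was taken in each library. At 10 weeks Drosha over Dgcr8 was 1.27 to 1.44 in WT and 1.48 to 2.10 in KO, and 1.18 to 1.34 in WT and 1.61 to 2.05 in A537T. Neither pair of groups overlapped, and the mean ratio was 1.80 in both mutants against 1.37 and 1.27 in WT. At 30 weeks the ratio was 1.18 to 1.44 in WT and 0.968 to 1.23 in KO, so the 2 ranges overlapped there. The ratio was not tested, since it was computed after Drosha and Dgcr8 had been seen.

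Dgcr8 messenger RNA is itself a substrate of the Microprocessor, which is known to cut hairpins at its 5′ end. Sequences of the mouse hairpins annotated there are shown because reads of the Dgcr8 messenger include them. In RefSeq (GRCm38.p6), Mir1306 lies at chr16:18284239-18284317 on the minus strand, within a coding exon of Dgcr8. The hairpin of miR-3618 lies at chr16:18284550-18284637, in an exon of the same gene. In the Mir1306 hairpin the capitals mark the 2 mature arms, and in the mature sequences they mark the seed, bases 2 to 8. The 4 seeds all differ.
Mir1306 hairpin: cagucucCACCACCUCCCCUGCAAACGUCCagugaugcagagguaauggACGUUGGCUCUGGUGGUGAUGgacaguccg
miR-1306-5p: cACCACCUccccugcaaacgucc
miR-1306-3p: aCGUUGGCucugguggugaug
miR-3618-5p: uGUGAUUUccaauaauugaggc
miR-3618-3p: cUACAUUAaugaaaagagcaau

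Xpo5, Dicer1 and Tarbp2, which act after the Microprocessor, overlapped between mutant and WT in every comparison. Xpo5, the export receptor, had 392, 472 and 411 normalized counts in WT and 450, 406 and 382 in KO at 10 weeks. At 30 weeks it had 570, 485 and 518 in WT and 482, 509 and 490 in KO. In KO its log2 fold changes were -0.04 at 10 weeks and -0.08 at 30 weeks, in A537T they were -0.04 and -0.13, and the widest of the 95% intervals ran from -0.38 to 0.30, for A537T at 10 weeks.

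Dicer1, which makes the final duplex, was the most even of the 10 genes. At 10 weeks its normalized counts were 835, 741 and 813 in WT and 772, 748 and 738 in KO. In A537T they were 748, 797 and 773 against 881, 768 and 846 in WT of that table. At 30 weeks KO libraries 4AF and 6AF had 937 and 899, and library 5AF had 687, with WT between at 756 to 827. The 4 log2 fold changes lay between -0.10 and 0.05, and their 95% intervals reached at most from -0.39 to 0.38, with adjusted p from limma between 0.693 and 0.901.

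Tarbp2, the double-stranded RNA-binding partner of Dicer1, was low, at 53 to 137 recovered reads per library. In WT of 10 weeks it spread from 66.5 to 114 normalized counts, and the KO libraries at 59.3, 77.3 and 67.4 lay at or below the middle of that spread. The log2 fold change was -0.39 for KO (95% CI -0.97 to 0.20, adjusted p = 0.401 from limma) and -0.27 for A537T (95% CI -0.85 to 0.32). At 30 weeks they were -0.03 and -0.18. The ratio of Dicer1 to Tarbp2 overlapped between mutant and WT in all 4 tables.

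**Figure D3:**
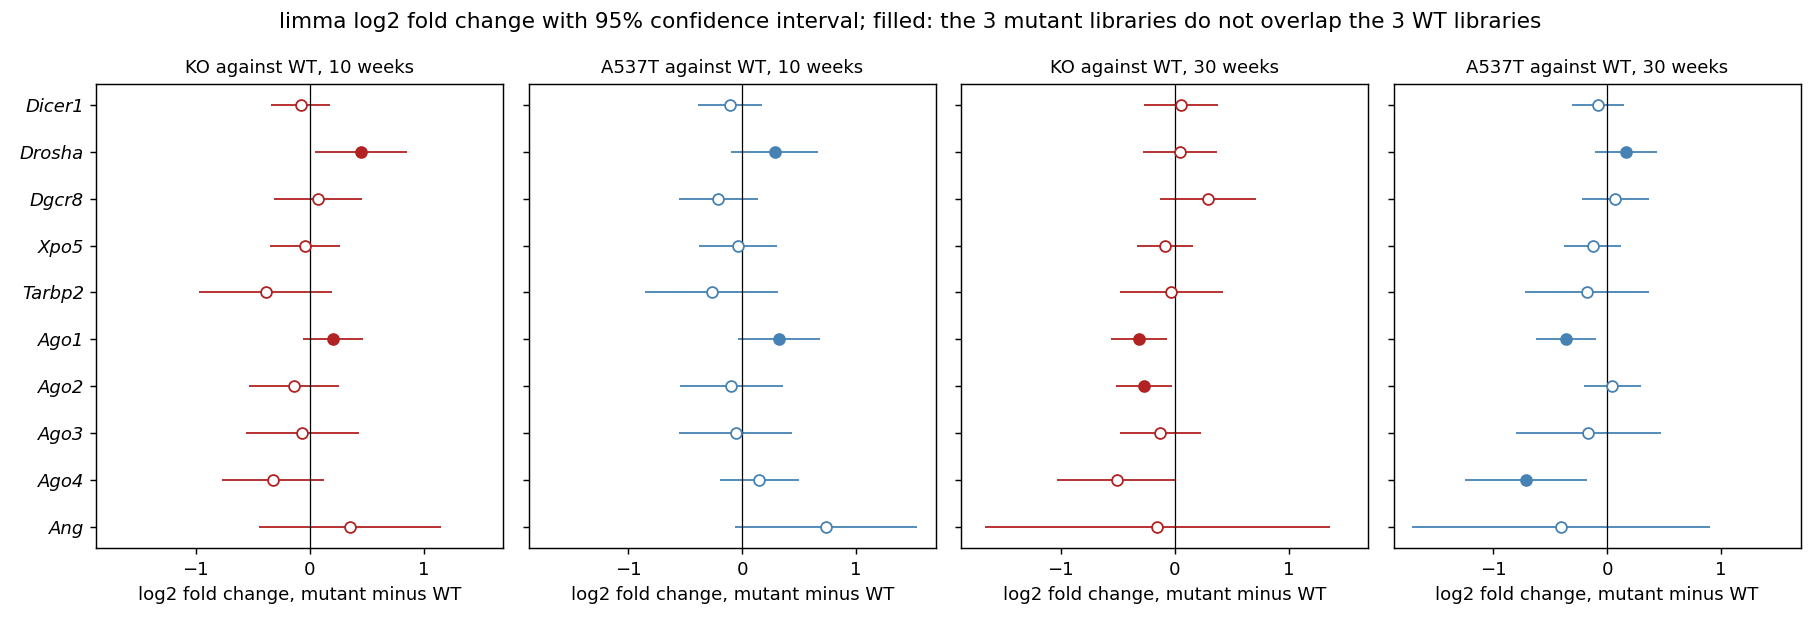
Log2 fold change of each gene, mutant minus WT, with its 95% confidence interval from limma, in the 4 comparisons; filled points are genes whose 3 mutant libraries do not overlap the 3 WT libraries. Of the 40 estimates, 9 are filled, and Ago1 and Drosha make up 7 of them.

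Groups failed to overlap for Drosha and Ago1 in both mutants at 10 weeks, with the mutant higher. Of all genes tested, 11.7% were higher without overlap in KO and 14.3% were lower. In A537T of 10 weeks these shares were 5.58% and 6.34%. At 30 weeks Ago1 and Ago2 were lower without overlap in KO, where 7.92% of genes were higher and 8.41% lower. In A537T Ago1 and Ago4 were lower and Drosha was higher, beside 9.4% of genes lower and 9.18% higher. With only 10 genes, counts of 1 or 2 in a direction are too small to set apart from these shares. This holds too for the 2 of 10 that were higher in A537T of 10 weeks, beside 5.58% of all genes. Drosha was higher there by less than 1 normalized count, and 0 members were higher at an unadjusted p under 0.05 from limma.

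Ago1, an Argonaute that represses targets through its protein partners, was the only member whose groups failed to overlap in all 4 comparisons. At 10 weeks its normalized counts were 428, 461 and 419 in WT and 525, 508 and 477 in KO. In the A537T table they were 446, 471 and 431 in WT and 662, 557 and 481 in A537T. Every mutant library lay above every WT library at this age. The log2 fold changes were 0.21 for KO (95% CI -0.06 to 0.47, adjusted p = 0.336 from limma) and 0.32 for A537T (95% CI -0.04 to 0.68, adjusted p = 0.746).

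At 30 weeks Ago1 lay on the other side of WT. Its normalized counts were 633, 758 and 714 in WT and 566, 550 and 577 in KO. In the A537T table they were 650, 779 and 735 in WT and 609, 546 and 533 in A537T. Every mutant library was below every WT library, and, in tables scaled separately for the 2 ages, mutant libraries lay between 477 and 662 while WT went from 419 to 471 at 10 weeks to 633 to 779 at 30 weeks. KO differed from WT by -0.31 on the log2 scale (95% CI -0.56 to -0.06, unadjusted p = 0.0202, adjusted p = 0.407 from limma) and A537T by -0.36 (95% CI -0.62 to -0.09, unadjusted p = 0.0149, adjusted p = 0.295).

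The difference between the ages was tested directly, as the fold change at 30 weeks minus that at 10 weeks. For Ago1 it was -0.52 in KO (95% CI -0.82 to -0.22, unadjusted p = 0.0029, adjusted p = 0.254 from limma). The A537T value was -0.68 (95% CI -1.08 to -0.28, unadjusted p = 0.0032, adjusted p = 0.224 from limma). Neither passed the test after adjustment over all genes. Both values rest on the same 6 WT libraries. At an unadjusted p under 0.05, 1 of 10 members passed for KO and 2 of 10 for A537T, beside 12.1% of all genes in each. After adjustment no member was called, beside 0% of genes in each. The Ago1 fold changes at 30 weeks were -0.35 for KO without 4AF and 6AF and -0.40 for A537T without 7AF and 9AF, a check chosen after seeing the data that leaves 1 mutant library in each comparison (adjusted p = 0.890 and 0.908 from limma). The lymphocyte and plasma cell share differed between the A537T and WT libraries of 30 weeks too, and its part in the A537T values of Ago1, Ago4, Drosha and Rnase4 at that age was not tested. At 10 weeks, with a skeletal muscle score as a covariate, Ago1 was at 0.24 for KO (adjusted p = 0.9996 from limma) and 0.46 for A537T (adjusted p = 0.844).

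Ago2, the Argonaute that can cut a target, was lower without overlap in KO of 30 weeks alone. Its normalized counts there were 939, 924 and 1073 in WT and 787, 787 and 860 in KO, a log2 fold change of -0.27 (95% CI -0.51 to -0.03, unadjusted p = 0.0342, adjusted p = 0.432 from limma). In A537T of 30 weeks they were 985, 985 and 875 against WT at 883, 867 and 1010, with a log2 fold change of 0.05 (95% CI -0.21 to 0.30). At 10 weeks 1 WT library, 10AF, was high at 1214, and the other WT libraries at 814 and 929 bracketed the KO libraries at 882 and 841, with the third KO library at 935.

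Ago3 did not separate the groups at either age. Its normalized counts at 10 weeks were 568, 367 and 568 in WT and 548, 450 and 422 in KO. In A537T of 30 weeks they ran from 341 in library 8AF to 745 in library 9AF, the lowest and the highest of the 18, against 484, 599 and 557 in WT. In KO the log2 fold changes were -0.06 at 10 weeks and -0.12 at 30 weeks, in A537T they were -0.06 and -0.16, and the last had a 95% interval from -0.80 to 0.47. With a seminal vesicle score as a covariate, the values at 30 weeks were -0.35 for KO and -0.62 for A537T (adjusted p = 0.869 and 0.760 from limma). Without 4AF and 6AF the KO value was -0.39, and without 7AF and 9AF that of A537T was -0.67, with 1 mutant library left in each.

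Ago4 had the largest fold change of the Argonautes in both mutants at 30 weeks. Its normalized counts at that age were 739, 674 and 580 in WT and 332, 593 and 509 in KO, so 1 KO library lay within the WT range. In the A537T table they were 753, 686 and 593 in WT and 367, 586 and 322 in A537T. The log2 fold change was -0.51 for KO (95% CI -1.03 to 0.01, adjusted p = 0.458 from limma) and -0.71 for A537T (95% CI -1.25 to -0.18, unadjusted p = 0.0159, adjusted p = 0.298).

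Seminal vesicle RNA differed between the same mutant libraries of 30 weeks. In libraries 5AF and 8AF, where the 8 seminal vesicle genes made up less than 0.0001% of counts (3 and 5 of the 8 at 0), Ago4 stood at 593 and 586, close to the lowest WT library of each table. In 4AF, 6AF, 7AF and 9AF, with 8.53, 6.32, 7.24 and 9.17%, it stood at 332, 509, 367 and 322. Without 4AF and 6AF the KO fold change was -0.16, and without 7AF and 9AF that of A537T was -0.20, with 1 mutant library left in each. With a seminal vesicle score as a covariate they were -0.19 and -0.25. Leaving out 8AF instead took the A537T fold change to -0.97 (adjusted p = 0.0119 from limma), where 8.27% of all genes passed. Over both ages the 2 measures did not always go together, since WT library 12AF of 10 weeks, with 0.000808% seminal vesicle RNA, had an Ago4 count of 423. The part of seminal vesicle RNA in the Ago4 values was not tested beyond these fits.

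At 10 weeks the Ago4 counts were 334, 383 and 423 in WT and 254, 384 and 282 in KO, a log2 fold change of -0.32 (95% CI -0.77 to 0.12). All 3 KO libraries held 6.55 to 10.3% seminal vesicle RNA, and the WT libraries 4.64, 1.76 and 0.000808% in the same order. With a skeletal muscle score as a covariate the estimate went to 0.14 (SE 0.24, adjusted p = 0.9996 from limma). In A537T, with at most 0.191% seminal vesicle RNA, the counts were 489, 398 and 443 against WT at 355, 400 and 444, and the log2 fold change was 0.15. The A537T fold change at 30 weeks minus that at 10 weeks was -0.86 (95% CI -1.49 to -0.24, adjusted p = 0.283 from limma), and -1.12 without 8AF (adjusted p = 0.022), where 2.72% of genes passed. In KO the difference was -0.18 (95% CI -0.86 to 0.49).

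**Figure D4:**
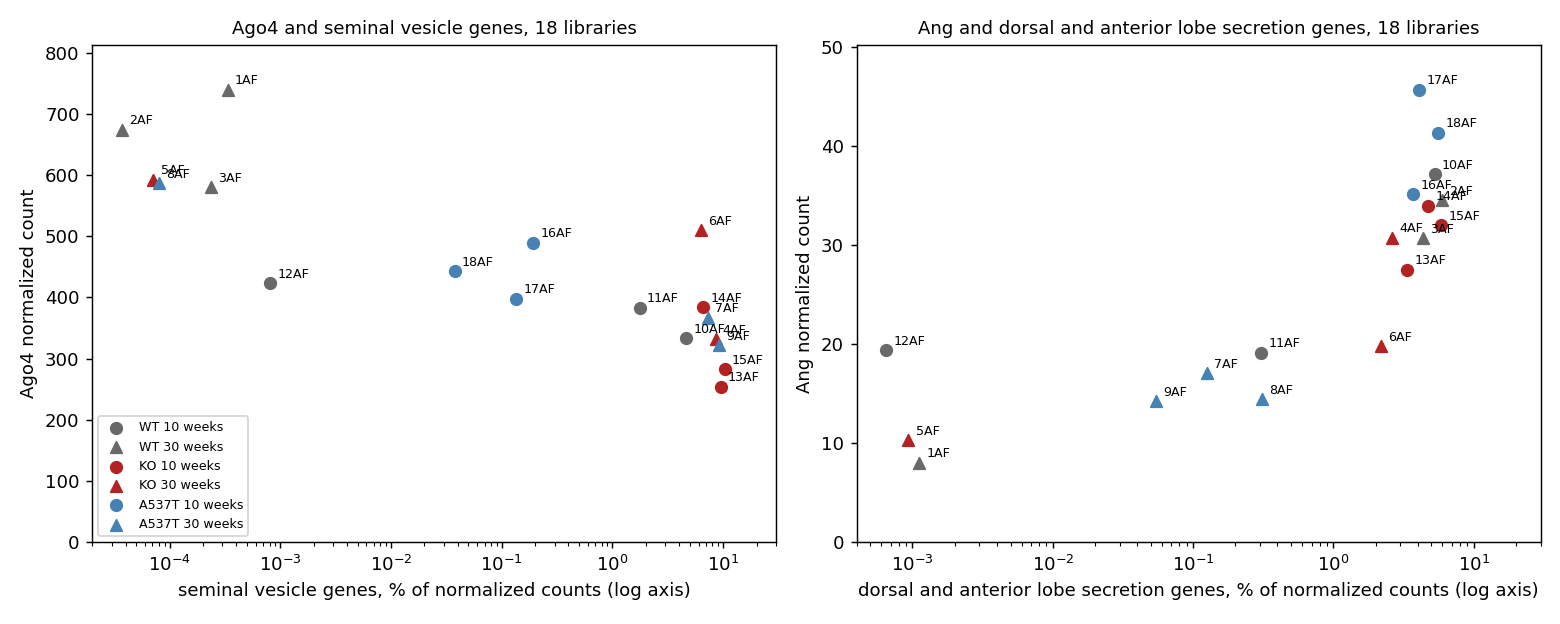
Left, normalized count of Ago4 against the percentage of normalized counts from the 8 seminal vesicle genes; right, Ang against that from 2 genes of dorsal and anterior lobe secretion; each dot is 1 of the 18 libraries, x axes are logarithmic, and WT values come from the KO tables. Ago4 is 254 to 509 in the libraries above 6% seminal vesicle RNA and 580 to 739 in the 5 libraries below 0.0004%, which are all of 30 weeks, while 12AF of 10 weeks is at 423 with 0.000808%, and Ang is at or below 20 in every library under 1% on the right.

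The 4 Argonautes were then expressed as shares of their summed per-kb level in each library. The sum was 209 ± 15 normalized counts per kb in WT and 198 ± 7 in KO at 10 weeks (SD, n = 3), and 220 ± 18 in WT and 233 ± 19 in A537T. At 30 weeks it was 284 ± 7 in WT and 226 ± 18 in KO, and 285 ± 7 in WT and 229 ± 12 in A537T. At 30 weeks every mutant library lay below every WT library. These sums and shares were not tested.

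Within the sum, Ago1 took 25.9 ± 3.2% in WT and 31.3 ± 1.3% in KO at 10 weeks, without overlap of the libraries. In A537T of 10 weeks its share was 29.8 ± 2.3% against 25.4 ± 3.2%. At 30 weeks the shares of Ago1 were 30.4% and 30.9% in WT and KO and 31.2% and 30.3% in WT and A537T, so Ago1 was lower there in step with the sum. Ago2 took 23.0 ± 2.3% in WT and 29.5 ± 1.5% in A537T of 30 weeks, again without overlap. The ratio of Ago2 to Ago1 was 0.644 to 0.795 in that WT group and 0.937 to 1.05 in A537T. Ago4 took 34.2% in WT and 26.5 ± 7.3% in A537T of 30 weeks, a spread that follows the split of Ago4 between 8AF and the other two.

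**Figure D5:**
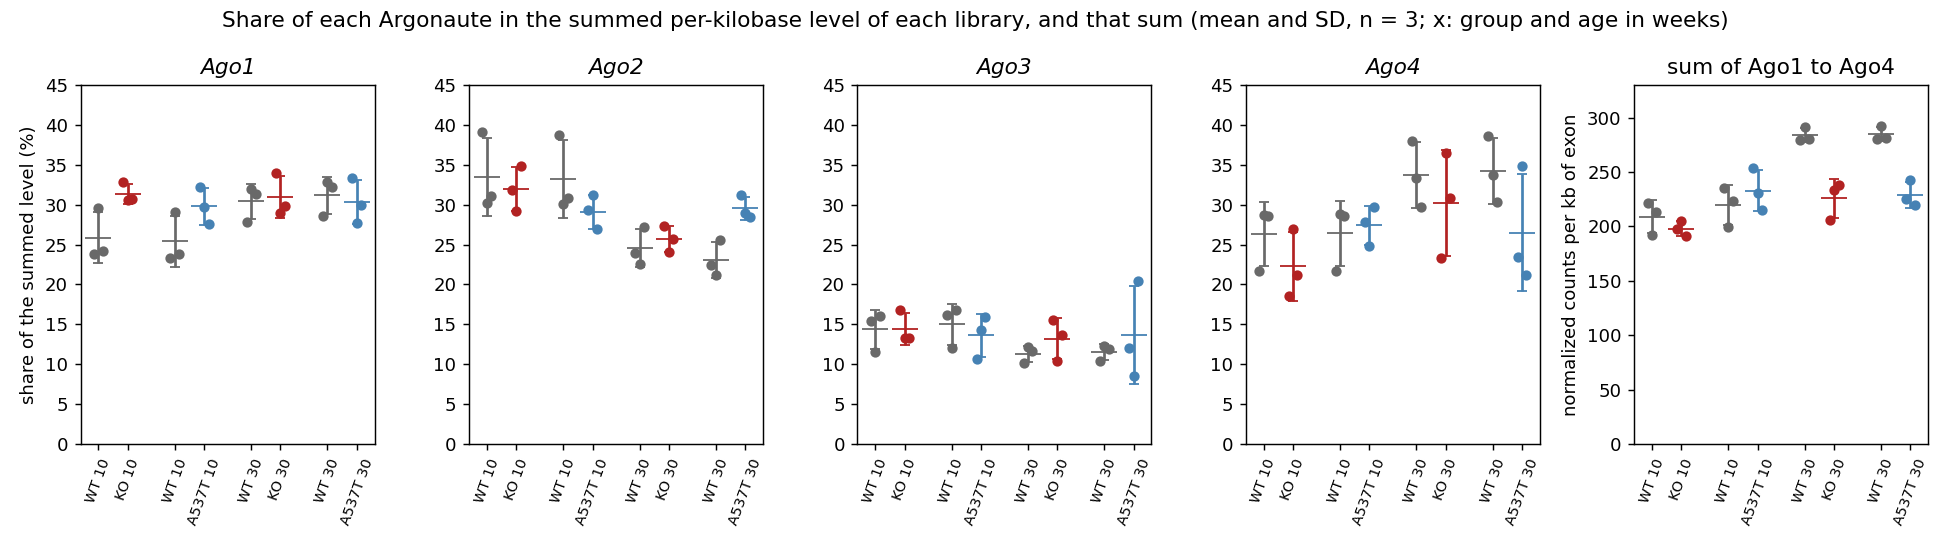
Share of Ago1, Ago2, Ago3 and Ago4 in their summed level per kb of exon (percent, first 4 panels) and that sum (normalized counts per kb, last panel), for every library (dots) with group mean and SD (lines), in 4 pairs of WT (grey) and mutant (KO red, A537T blue) groups. At 30 weeks the sum is 284 to 285 in WT and 226 to 229 in the mutants on average, while the share of Ago1 stays near 30 to 31%.

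Ago3, Ago1 and Ago4 lie side by side on chromosome 4 (GRCm38), on the minus strand, with 5455 bases between Ago3 and Ago1 and 20957 between Ago1 and Ago4. Ago1 runs from 126435012 to 126468583 and Ago4 from 126489541 to 126533472. Ago2 lies alone on chromosome 15, from 73095844 to 73184935. Ago3 overlapped between groups in all 4 comparisons, while Ago1 overlapped in none. At 30 weeks the log2 fold changes of Ago3, Ago1 and Ago4 were all below 0 in both mutants. At 10 weeks Ago1 was above 0 in both mutants and Ago3 below 0.

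The bases before the RefSeq starts of Drosha, Ago1 and Ago4 are shown because Ago1 and Drosha stood apart from WT in the most comparisons and Ago4 had the largest fold changes of the Argonautes. Each run is 250 bases, 5′ to 3′ on the gene's strand. Capitals mark matches to the CCAAT box (CCAAT, or ATTGG on the other strand) and to the GC box (GGGCGG, or CCGCCC on the other strand). Drosha is at chr15:12824565-12824814 on the plus strand, Ago1 at chr4:126468584-126468833 and Ago4 at chr4:126533459-126533708 on the minus strand, all in GRCm38.p6. RefSeq promoters matched 9 of the 10 members, all but Ago2.
Drosha promoter: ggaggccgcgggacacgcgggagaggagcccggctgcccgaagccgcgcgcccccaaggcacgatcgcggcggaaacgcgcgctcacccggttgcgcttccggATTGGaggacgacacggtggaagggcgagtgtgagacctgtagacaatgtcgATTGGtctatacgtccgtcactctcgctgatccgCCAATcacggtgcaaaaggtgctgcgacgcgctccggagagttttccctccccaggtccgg
Ago1 promoter: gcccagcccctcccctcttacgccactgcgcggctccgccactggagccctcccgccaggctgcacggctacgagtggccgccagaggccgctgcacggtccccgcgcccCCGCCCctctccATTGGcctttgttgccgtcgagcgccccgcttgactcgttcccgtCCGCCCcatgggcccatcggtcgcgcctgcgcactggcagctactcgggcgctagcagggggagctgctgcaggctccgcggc
Ago4 promoter: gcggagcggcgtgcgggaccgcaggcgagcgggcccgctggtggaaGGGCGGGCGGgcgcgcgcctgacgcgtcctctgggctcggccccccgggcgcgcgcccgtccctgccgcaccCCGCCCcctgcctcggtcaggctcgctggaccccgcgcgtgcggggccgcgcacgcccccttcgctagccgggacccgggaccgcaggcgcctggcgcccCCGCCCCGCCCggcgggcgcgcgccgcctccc

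The CCAAT letters occur 3 times in the Drosha run, once in that of Ago1 and not in that of Ago4. The GC box occurs 0, 2 and 5 times, where overlapping matches were counted apart. Of 32817 mouse promoters of the same length, 33.8% hold CCAAT and 32.7% hold GGGCGG on either strand. CG dinucleotides number 33, 28 and 46 in the 3 runs, against a median of 6 over all promoters. None of the 3 holds CACGTG or TATAAA, which 6.02% and 12.4% of all promoters hold. These matches describe the letters only.

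Ang, the ribonuclease that cuts transfer RNAs, was the most variable gene. At 10 weeks its normalized counts were 37.2, 19.2 and 19.4 in WT and 27.5, 34.0 and 32.0 in KO. In the A537T table they were 37.3, 19.02 and 19.2 in WT and 35.1, 45.7 and 41.4 in A537T. WT library 10AF lay within or near the mutant range in both, so the groups overlapped. The log2 fold change was 0.36 for KO (95% CI -0.44 to 1.15, adjusted p = 0.559 from limma) and 0.74 for A537T (95% CI -0.06 to 1.53, adjusted p = 0.746).

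At 30 weeks Ang stood at 8.04, 34.6 and 30.7 in WT and 30.7, 10.3 and 19.8 in KO, and at 17.1, 14.5 and 14.2 in A537T. The log2 fold changes were -0.15 and -0.40, with 95% intervals from -1.66 to 1.36 and from -1.71 to 0.91. Single libraries set these values: the KO estimate was -0.78 without 1AF and 0.24 without 5AF, and the A537T estimate was -1.02 without 1AF and -0.06 without 2AF. The counts went with the secretory genes Tgm4 and 9530053A07Rik of the dorsal and anterior lobes. These 2 genes made up 0.00111% of normalized counts in library 1AF and 0.000935% in 5AF, where Ang was at 8.04 and 10.3, and 5.93 and 4.33% in 2AF and 3AF, where it was at 34.6 and 30.7. In the A537T libraries of 30 weeks they made up 0.0549 to 0.312%, and in those of 10 weeks 3.71 to 5.60%. The part of these secretory genes' lobes in the Ang fold changes was not tested.

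Ang and Rnase4, a related secreted ribonuclease, overlap on chromosome 14 (GRCm38). Ang runs from 51091150 to 51102009 on the plus strand and shares 219 of its 1202 exon bases with Rnase4, or 18.2%, so reads in the shared part cannot be assigned by position. The bases before their shared start, at chr14:51090827-51091076 in GRCm38.p6, are shown because both genes are annotated from this region. Capitals again mark CCAAT.
Ang promoter: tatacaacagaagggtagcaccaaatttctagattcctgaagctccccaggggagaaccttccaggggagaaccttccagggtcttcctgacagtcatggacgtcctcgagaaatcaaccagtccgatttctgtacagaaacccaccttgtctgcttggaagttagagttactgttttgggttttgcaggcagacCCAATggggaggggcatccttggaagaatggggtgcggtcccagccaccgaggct

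This run holds 5 CG dinucleotides, close to the median of 6, and no GC box. The 2 genes did not go together at 30 weeks. Rnase4 stood at 117, 165 and 136 normalized counts in WT and 226, 174 and 199 in KO, and at 223, 212 and 225 in A537T. Both mutants lay above WT without overlap. The log2 fold change of Rnase4 was 0.53 for KO (95% CI 0.11 to 0.94, adjusted p = 0.407 from limma) and 0.68 for A537T (95% CI 0.31 to 1.04, adjusted p = 0.241 from limma). DESeq2 called it in A537T (adjusted p = 0.0448), where it called 3.19% of genes. In the younger mice the Rnase4 fold changes were -0.13 for KO and 0.33 for A537T on the log2 scale.

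Other genes of these pathways were read from hand-written lists. Of 15 partners of microRNA processing, 13 were tested and 0 were called in any comparison by limma, edgeR or DESeq2. At an unadjusted p under 0.05, 1 was higher and 1 lower in KO of 30 weeks, 1 was lower in A537T of 30 weeks, beside 11% and 13.6% of all genes, and none passed at 10 weeks, beside 19.4% and 6.43%. The helicases Ddx5 and Ddx17, partners of the Microprocessor, were the most abundant of them. Ddx5 stood at 5335 ± 137 normalized counts in WT and 6113 ± 240 in KO at 10 weeks (SD, n = 3), with log2 fold changes of 0.20 and 0.20 at 10 weeks and -0.12 and -0.08 at 30 weeks. Those of Ddx17 were 0.17, 0.10, -0.05 and -0.04. The developmental microRNA regulators Lin28a and Lin28b were at or under 1 normalized count on average in every group, so they were not tested.

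Of 15 cofactors of the silencing complex, all were tested and 0 were called by any of the 3 tools. In KO their median log2 fold change was 0.21 at 10 weeks and -0.05 at 30 weeks, and in A537T it was 0.08 and -0.01. Hsp90ab1, the chaperone subunit that helps load Argonautes, had log2 fold changes of 0.20 and 0.50 at 10 weeks and -0.35 and -0.31 at 30 weeks. Pabpc1, the poly(A)-binding protein, had 0.38 and 0.45 at 10 weeks and -0.54 and -0.64 at 30 weeks. None of these passed the test.

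Of 13 genes around transfer RNA fragments, 8 were tested and 0 were called by limma or edgeR. DESeq2 called 1, Rnase4, as given above. Rnh1, the cytosolic inhibitor of Ang, had log2 fold changes of -0.35 and 0.04 at 10 weeks and 0.03 and 0.21 at 30 weeks. Those of Ssb, the La protein that binds the 3′ ends of new transfer RNAs, were -0.20, -0.05, -0.05 and -0.01. The PIWI-clade Argonautes and their partners, known from the germ line, were almost silent. Of 6 such genes 1, Piwil2, reached the minimum level, in the A537T table of 30 weeks only, at 9.01 ± 2.18 normalized counts in WT and 12.9 ± 7.8 in A537T. Piwil4, the next most abundant, averaged 8.69 ± 2.95 normalized counts in WT of 30 weeks and was not tested in any table.

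Of 10 microRNA host transcripts, 5, 5, 5 and 4 were tested in the 4 comparisons and limma and edgeR called 0. DESeq2 called 2 in KO of 10 weeks, beside 4.74% of all genes. H19, the host of miR-675, stood at 336 to 1651 normalized counts in WT and 6.86 to 125 in KO (log2 fold change -5.04, adjusted p = 0.183 from limma and 0.0349 from DESeq2). Mir22hg stood at 96.5 ± 13.3 and 51.7 ± 5.4 (log2 fold change -0.88, adjusted p = 0.0399 from DESeq2). Skeletal muscle RNA differed in the same direction between those groups, at 1.50 to 5.26% in WT against 0.0263 to 0.832% in KO. For KO of 10 weeks limma called 0 of 15089 genes without a skeletal muscle score and 0 with it as a covariate (lowest adjusted p = 0.183 and 0.9996 from limma). That fit therefore cannot speak to the DESeq2 calls. The part of skeletal muscle RNA in the DESeq2 calls was not tested. Meg3, the most abundant host transcript, overlapped between groups in all 4 comparisons, with log2 fold changes of 0.23 for KO and 0.87 for A537T at 10 weeks and -0.90 and -0.45 at 30 weeks. At 30 weeks H19 was at 13.1 ± 8.2 in WT and 8.15 ± 6.04 in KO.

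Genes most like Dicer1 and Ago2 were sought among 9949 genes, by the SD over the 18 libraries of the log2 ratio of the 2 levels. WT levels were taken from the KO tables. Differences between the 4 tables, which a ratio need not cancel, were not removed. Closest to Dicer1 were Taok1 at 0.0900, Mxi1 at 0.0935 and Lnpep at 0.0935. Closest to Ago2 were Prcc at 0.126, Rap1gds1 at 0.134 and Cpped1 at 0.143. Among the members themselves, Dicer1 and Dgcr8 kept the most constant ratio, with an SD of 0.156, followed by Xpo5 and Ago1 at 0.174, and the ratio of Ago4 to Ang varied most, with an SD of 0.937.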

How the data were processed

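RNA of 18 prostate libraries was analysed from 4 tables of 55469 genes. The authors trimmed reads with Trim Galore 0.4.1 and cutadapt 1.18, aligned them with STAR 2.7.3a to GRCm38.p6 after masking mitochondrial sequences of the nuclear genome, used Salmon for stranded quantification, and normalized the counts with DESeq2 1.26. The deposited signal is taken here as an estimated gene count over the size factor of its library. The estimated count and the size factor both depend on the table of 6 libraries. A size factor alone therefore does not account for how the same WT library differs between tables. Tables of the authors' own comparisons hold shrunken fold changes and s-values and were not used. Column names give a library label without genotype or replicate, and columns were assigned to groups through the libraries shared by both tables of an age, which are WT, and through the mean of each table.

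All genes averaging 10 or more normalized counts in a table were tested with limma 3.58.1 (trended eBayes) on log2(normalized count + 1), with Benjamini-Hochberg adjustment over all genes tested and a threshold of 0.05. Fold changes on this scale understate those of low genes. Change at 30 weeks minus change at 10 weeks was fitted over both tables of a line. Whole numbers, called recovered reads here, were obtained from the values and tested with edgeR 4.0.16 and DESeq2 1.42.0. Of the values up to 1000 reads, 100% lay within 0.1 reads of a whole number. They are rounded estimates and not counts of sequenced reads, and they depend on the table. Ago2 in WT library 1AF came to 1168 in the KO table and 1101 in the A537T table of 30 weeks. In WT library 10AF, Dgcr8 came to 252 in the KO table and 270 in the A537T table of 10 weeks. Tarbp2 in that library went the other way, from 68 to 63. Depth was 6569642 to 11225281 recovered reads per library, and precision is limited by it and by the number of mice. All p-values measure the spread between 3 mice a group. The fits were tested on simulated data.

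Gene positions and lengths come from a GENCODE annotation of GRCm38. Of the gene IDs, 54450 matched it exactly and 55107 without versions. Sequences come from RefSeq, GRCm38.p6. The genes named are the 10 members, Elac2, the 2 most abundant genes of each list and any called, and for Dicer1 and Ago2 the 3 genes of most constant ratio. Lin28a, Lin28b, Mir22hg, Rnase4, Tgm4 and 9530053A07Rik fall in part outside that rule and were named after their values were seen. The members and lists were chosen with earlier results of these data known.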

Additional observations from a re-analysis of the deposited data

How the results depend on the processing

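No paired analysis was possible because the columns carry no replicate numbers. Of 92 counts of members called under the alternatives, 90 were 0 as in the main analysis. The count was 0 to 1 with a library left out in turn for A537T at 30 weeks and for the A537T difference between ages, the 1 in each case being Ago4 without 8AF. Over all genes some libraries decided far more, since limma called 2886 of 15044 genes for KO of 10 weeks without 10AF, 185 of 15082 without 14AF, 944 of 14732 for KO of 30 weeks without 5AF and 1224 of 14801 for A537T of 30 weeks without 8AF, against 0 with all libraries. Of 1004 fold changes under alternatives, 926 kept their direction and 78 reversed, 48 of them with a library left out in turn. The fold changes of Ago1 kept their sign under every alternative run. Scaling to the same total moved the median of all genes by 0.20 (KO) and 0.15 (A537T) at 10 weeks and by -0.19 and -0.12 in the differences between ages. Relative to 0 it reversed Dicer1, Xpo5, Ago2 and Ago3 in KO (0.13, 0.17, 0.077, 0.15) and A537T (0.035, 0.10, 0.044, 0.081) of 10 weeks, and in the differences between ages Dicer1 (-0.085 in KO, -0.091 in A537T) and Tarbp2 (-0.022 in A537T), all by no more than about that shift. Quantile normalization reversed Xpo5 (0.053) and Ago3 (0.029) in KO and Xpo5 (0.0039) in A537T of 10 weeks. A skeletal muscle score reversed Dgcr8 (-0.23) and Ago4 (0.14) in KO and Xpo5 (0.094) and Tarbp2 (0.035) in A537T of 10 weeks. At 30 weeks a seminal vesicle score, and leaving out 4AF and 6AF or 7AF and 9AF (chosen after seeing the data), reversed Dicer1 (-0.20 and -0.22), Drosha (-0.15 and -0.16) and Dgcr8 (-0.019 and -0.036) in KO, and Dgcr8 (-0.027 and -0.026), Tarbp2 (0.10 and 0.15) and Elac2 (0.19 and 0.23) in A537T. The cause was not tested.

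With a library left out in turn, fold changes that reversed ran as follows. In KO of 10 weeks they ran from -0.037 to 0.17 for Dgcr8, -0.11 to 0.036 for Xpo5, -0.26 to 0.026 for Ago2 and -0.27 to 0.042 for Ago3. In A537T of 10 weeks they ran from -0.12 to 0.044 for Xpo5, -0.23 to 0.073 for Ago2 and -0.27 to 0.054 for Ago3. In KO of 30 weeks they ran from -0.030 to 0.19 for Dicer1, -0.017 to 0.15 for Drosha, -0.13 to 0.13 for Tarbp2, -0.21 to 0.01 for Ago3 and -0.78 to 0.24 for Ang. In A537T of 30 weeks they ran from -0.015 to 0.12 for Dgcr8 and -0.47 to 0.089 for Ago3. Differences between ages in KO ran from -0.12 to 0.021 for Xpo5, -0.17 to 0.15 for Ago3, -0.36 to 0.057 for Ago4 and -0.27 to 0.038 for Elac2. Those in A537T ran from -0.019 to 0.080 for Dicer1, -0.080 to 0.29 for Tarbp2, -0.028 to 0.27 for Ago2 and -0.42 to 0.15 for Ago3. Ang and Tarbp2 have no value at a minimum mean of 100. Of 32 Argonaute shares, 31 moved by less than 1 SD with the longest transcript, and that of Ago1 in KO of 10 weeks went from 31.3 to 33.0%. With 10 to 48 recovered reads a library, depth limits Ang most.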
